A study of Homo sapiens with 6 samples.

Results

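The genes described here encode 10 factors that cleave the 3' end of messenger RNA precursors and prepare it for the poly(A) tail. They were chosen by symbol, as CPSF1, CPSF2, CPSF3, CPSF4, CPSF6, CPSF7, NUDT21, CSTF1, CSTF3 and PCF11, out of 32917 genes in the expression table, and each symbol matched 1 gene. The data come from Kasumi-1, an established human acute myeloblastic leukaemia line of WT genotype per the labels. All samples carried the same treatment, 100 uM CoCl2, which mimics low oxygen, together with 10 nM echinomycin, a DNA-binding inhibitor of HIF-1, for 24 hours. There were 3 libraries made with an antibody against N6-methyladenosine (m6A) and 3 libraries of the RNA before the pulldown (input), numbered as 3 biological replicates. Untreated cells and cells given CoCl2 alone were not analysed here. The expression table has 6 further input columns, which match none of these samples and were not used, so RNA levels were not compared with CoCl2, and the comparison below is the authors' list of m6A peaks. A peak has a single value in either list, with none for a replicate, and the fold enrichment (pulldown over input) is the authors' own.

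Cleavage and polyadenylation is carried out by several complexes that assemble on the nascent transcript. CPSF reads the polyadenylation signal AAUAAA and cuts the RNA, CFIm binds UGUA upstream of the cut and steers the choice between alternative sites, CstF binds the GU-rich stretch downstream, and PCF11 couples the reaction to RNA polymerase II and to termination. The m6A methyltransferase subunit VIRMA is known to associate with the CFIm proteins NUDT21 and CPSF6, and m6A is known to be dense near stop codons and in 3' UTRs, where these factors act.

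All 10 genes were expressed, and their input levels spread over 22.2-fold. Levels are in FPKM, which is per transcript length, so genes can be set against each other. CPSF1, the large scaffold of CPSF, had 55.0, 55.7 and 51.2 FPKM in replicates 1 to 3, a mean of 54.0 ± 2.40 (SD, n = 3), above every value of the other members. CPSF7, a large CFIm subunit, had 32.3, 31.2 and 31.4 FPKM in the same order, and NUDT21, the UGUA-binding small subunit of CFIm, had 31.0, 30.5 and 31.5 FPKM. The values of these CFIm genes overlapped, at means of 31.6 ± 0.588 and 31.0 ± 0.510 (SD, n = 3), so their order is not resolved. PCF11 followed with 27.5, 27.0 and 28.4 FPKM. CPSF3, the endonuclease that makes the cut, had 20.3, 20.3 and 20.1 FPKM, and CPSF6, the other large CFIm subunit, had 14.7, 15.6 and 14.1 FPKM. No value of CPSF6 reached those of CPSF7, its paralog.

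The lower part of the order held the CstF genes and the remaining CPSF genes. CSTF1, a WD40-repeat subunit of CstF, had 11.7, 11.8 and 11.8 FPKM in replicates 1 to 3, and CSTF3, the CstF scaffold, had 10.1, 11.2 and 11.2 FPKM. CPSF4, a zinc finger subunit that contacts the AAUAAA signal, had 5.25, 5.22 and 4.48 FPKM. CPSF2, the catalytically inactive relative of CPSF3, had 2.32, 2.49 and 2.47 FPKM, with no value near those of CPSF3. Apart from CPSF7 and NUDT21, no pair of neighbours in the order overlapped in its 3 values. The replicate SD lay between 0.231% and 8.80% of the mean, with the widest spread for CPSF4. The median of the 10 means was 17.5 FPKM, against 5.36 FPKM over the 12612 genes at 1 FPKM or more, and CPSF4 and CPSF2 alone of the members lay below 5.36 FPKM.

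**Figure D1:**
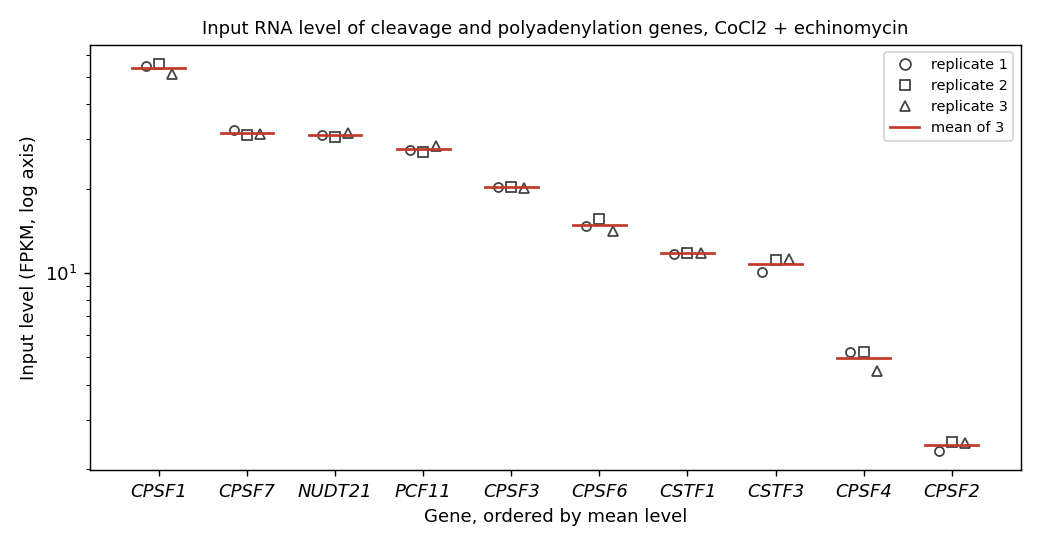
Input level of each gene in FPKM (log axis) in the 3 input libraries of the combined treatment, with the mean as a red line. CPSF1 stands above all others at 54.0 FPKM, CPSF7 and NUDT21 overlap, and CPSF2 is lowest at 2.43 FPKM.

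Of the 10 genes, 9 carried at least 1 listed m6A peak (90.0%, exact Clopper-Pearson 95% interval 55.5 to 99.7), against 79.7% of the 12612 genes at 1 FPKM or more. This share is close to that of expressed genes in general. The interval covers counting error only, and with 10 genes chosen by symbol it is too wide to compare the shares. In all, the members had 29 listed peaks, with 9 labelled 5' UTR, 7 labelled exon and 13 labelled 3' UTR. Each peak has a single label, also where its blocks lie in several exons, so a label does not place every block. The median fold enrichment of the 29 peaks was 3.91, against 4.53 over all 42634 listed peaks. Peaks spanning more than 1 exonic block made up 17 of the 29 (58.6%), against 35.6% of all listed peaks.

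Strand was read from the order of rows. Within 47 of 48 chromosome stretches of the peak list, starts ascended, dropped back by over 1 Mb at a single point and ascended again. Where genes of only 1 strand lay under a peak, the run matched that strand for 98.4% of 32445 peaks, the first run being plus and the second minus. By this reading, 5 of the 29 members' peaks (17.2%) lay on the strand opposite to the gene whose name they carry, against 12.2% of all listed peaks. Without them, 24 listed peaks of the members were left, 9 labelled 5' UTR, 5 labelled exon and 10 labelled 3' UTR. The median fold enrichment of these 24 was 4.25, and 66.7% spanned more than 1 exonic block. The opposite-strand peaks are described with their genes below.

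CFIm ranged from the strongest m6A peak among the members to a gene with none. CPSF7 had the strongest peak of all the members, a 5' UTR peak of 126-fold enrichment on chromosome 11 at 61429518 to 61429971, with 329 exonic bases in 3 blocks. Only 11 of all 42634 listed peaks were at that level or above. Its log10 p of -79.8 was nevertheless weaker than those of its broad 3' UTR peaks, which had -1110 at 6.36-fold and -837 at 5.47-fold over 867 and 1017 exonic bases. A further CPSF7 peak labelled 3' UTR was at 2.07-fold. CPSF6, the paralog of CPSF7, had a single listed peak, of 2.86-fold over 540 exonic bases in 3 blocks, labelled 3' UTR on chromosome 12 at 69260177 to 69269840, and none at its 5' end. NUDT21 had no listed peak although its level matched that of CPSF7. Among the 997 genes at or above the NUDT21 mean, 237 (23.8%) likewise had none.

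**Figure D2:**
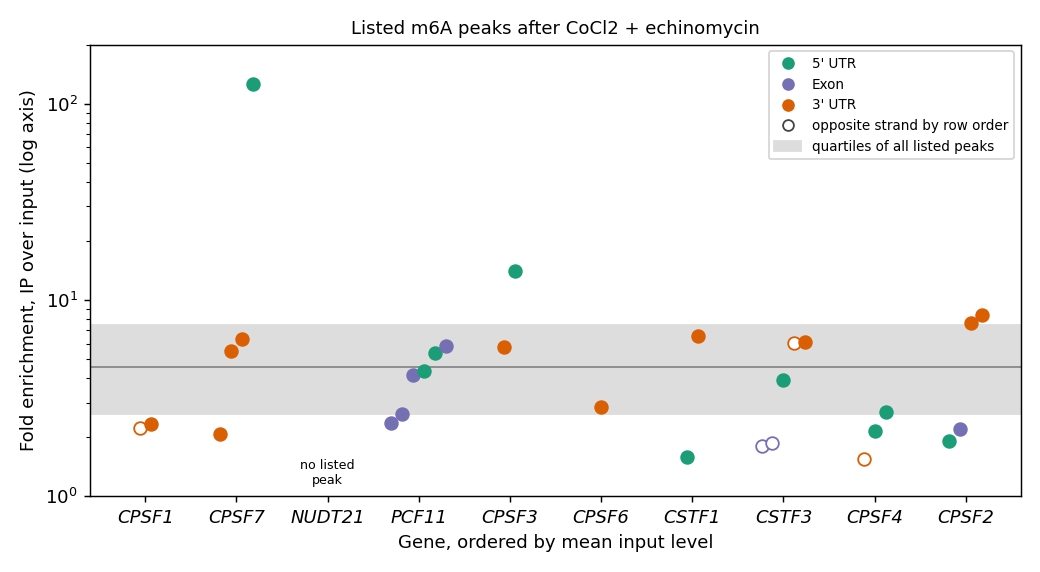
Fold enrichment (IP over input, log axis) of each listed peak by gene, coloured by region, with open symbols for peaks on the opposite strand by row order and grey for the quartiles of all listed peaks. The CPSF7 5' UTR peak at 126 stands apart, NUDT21 has none, and most others lie between 1.54 and 8.38.

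The first bases of the transcripts show what letters lie under the 5' peaks. RefSeq start sites of GRCh38.p14 were found for 9 of the 10 genes, with 11 windows in all, and the first 50 transcribed bases were searched on the transcribed strand for the consensus of m6A sites: A, G or T, then A or G, then A, C, and last A, C or T. Some match was present in 5 of the 11 windows, against 49.6% of 35116 windows of the same length, so its presence there is common. Stretches of 30 bases around each match follow, with the matching letters in capitals.
CPSF7, chr11:61429926-61429955, minus strand: cgggcctagtccGGACTcgccgccgccgcc
PCF11, chr11:83157140-83157169, plus strand: agcggttggGAACAcAGACAttttcggagc
CPSF6, chr12:69239587-69239616, plus strand: gccgcggcgggcAGACCtgcaggaggcggc
CSTF1, chr20:56392393-56392422, plus strand: caacggccagccAGACCtgtggcagtccca
CPSF4, second start site, chr7:99439432-99439461, plus strand: cactccatcctgAGACCtcctcttctggat

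The matches of CPSF7 and PCF11 lay wholly inside a listed peak of their own gene, and those of CPSF6, CSTF1 and CPSF4 did not. In CPSF7 the letters GGACT stood at bases 33 to 37 of the transcript, under the 126-fold peak, which covered 46 of the first 50 bases. That exact word occurred in 4.90% of all 35116 windows. PCF11 held GAACA and AGACA between bases 19 and 29, under a 5' UTR peak of 5.37-fold. The AGACC of CPSF6, at bases 31 to 35, had no listed peak over it. Neither the windows of CPSF2, CPSF3, NUDT21 and CSTF3 nor the other start sites of CPSF4 and CSTF1 held a match. A peak of the same gene nevertheless covered 20 of the 50 bases in CPSF2, all 50 in CSTF3 and at the first CPSF4 start site, and 25 at the second CSTF1 start site. A match describes the letters and does not locate a methylated base.

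PCF11, a subunit of the CFII complex, had the most listed peaks of the members, 6, all on its own strand and covering 3693 exonic bases. As many or more were listed for 6.97% of genes at 1 FPKM or more. The 5.37-fold peak at its 5' end was followed by a peak of 2.61-fold on chromosome 11 at 83157977 to 83158307, labelled as exon 1 of 1 of a single-exon PCF11 transcript. Within the long transcript, exon 5 of 16 carried 4.13-fold and exon 6 of 16 carried 5.81-fold over 1050 exonic bases. The next, of 4.37-fold and labelled 5' UTR of another PCF11 transcript, lay in the middle of the gene, and the last, in exon 13 of 16, was at 2.36-fold. PCF11 is known to limit its own expression by premature polyadenylation near its 5' end. No source used here says whether the single-exon transcript is that short form.

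Both CstF genes combined a stronger peak labelled 3' UTR with a weaker 5' UTR peak. CSTF1 had 6.52-fold over 750 exonic bases in 2 blocks labelled 3' UTR, on chromosome 20 at 56399107 to 56403966. Its peak labelled 5' UTR was at 1.59-fold over 121 bases. CSTF3 had 6.12-fold over 389 exonic bases in 2 blocks at the 3' end of its listed span, on chromosome 11 at 33077188 to 33084709. Its 5' UTR peak was at 3.91-fold in 4 blocks. The other 3 of the 5 peaks with the name CSTF3 lay on the opposite strand, at 6.04-fold, 1.81-fold and 1.86-fold. They fall inside LINC00294, a noncoding gene on the plus strand at 33076149 to 33079454, with 7.37 ± 0.704 FPKM (SD, n = 3), and the last of them ends on the final base of that gene. TCP11L1, on the plus strand too, also spans this stretch. The larger block of the 6.12-fold CSTF3 peak, 263 bases at 33077188 to 33077450, lay there too, within the opposite-strand peak of 6.04-fold. The RefSeq position of CSTF3 ends at 33084584, short of that block. Which gene gave the signal in that block cannot be told apart.

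The CPSF genes had modest peaks apart from CPSF2 and CPSF3. CPSF3 had 5.78-fold in 3 blocks at its 3' end and 14-fold over 391 bases in a 5' UTR. The 5' UTR value came with a weak log10 p of -3.37, and 144 peaks of the list held exactly the same pair of values. CPSF2 had 7.62-fold over 1019 exonic bases in 5 blocks labelled 3' UTR, with a log10 p of -132, beside 2.21-fold in exon 9 of 16 and 1.91-fold in its 5' UTR. Its highest value, 8.38-fold, was the 1 member peak that missed an FDR of 0.05 in the list (log10 FDR -0.907), and 589 peaks shared its pair of values. CPSF2 was the member with the lowest input level.

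CPSF1, the member with the highest level, had the fewest exonic bases under peaks among the 9 genes with a peak. On its own strand it held 1 peak of 2.33-fold over 151 exonic bases at the very 3' end, on chromosome 8 at 144393229 to 144393465. The other peak with its name, of 2.22-fold, lay on the plus strand and ended at 144393242, the final base of the neighbouring plus-strand gene ADCK5 (4.17 ± 0.551 FPKM, SD, n = 3).

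In CPSF4 the strand reading changed which peaks describe the gene. Its 3' UTR peak by name, of 1.54-fold, lay on the minus strand and inside ATP5MF, a subunit gene of the mitochondrial ATP synthase at 25.6 ± 3.43 FPKM (SD, n = 3) that overlaps CPSF4. PTCD1, a minus-strand gene at 7.11 ± 0.648 FPKM (SD, n = 3), also spans that peak. Conversely, peaks of 2.57-fold and 2.29-fold on chromosome 7 at 99454106 to 99456684 and at 99457044 to 99457343 lay on the plus strand within CPSF4 but carried the name of PTCD1. The 5' UTR peaks of CPSF4, of 2.69-fold and 2.16-fold, were on its own strand. CPSF4 was the only member with such peaks under another gene's name.

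**Figure D3:**
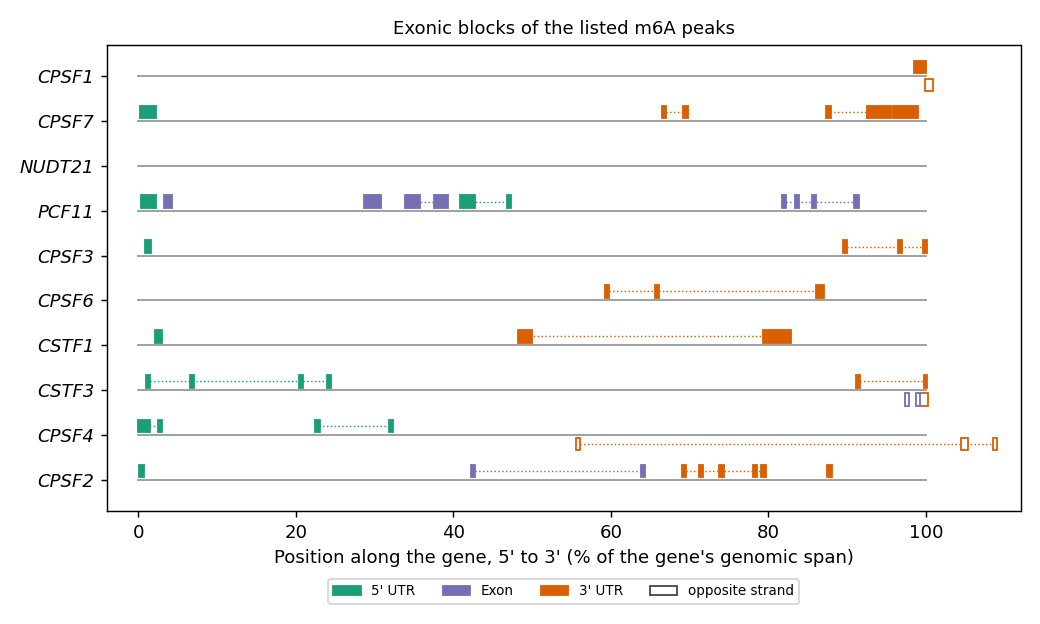
Exonic blocks of each listed peak along the gene, from the 5' to the 3' end in percent of the genomic span, filled above the line for the gene's own strand and open below it for the opposite strand. Blocks under 0.5% of the span are drawn at 0.5%. CPSF7, CPSF3 and CSTF3 have blocks at both ends, PCF11 has blocks at its start, in the middle and toward the 3' end with gaps between, and 5 peaks (1 of CPSF4, 1 of CPSF1 and 3 of CSTF3) are on the opposite strand.

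The second list addressed what echinomycin adds to CoCl2, as a log2 fold change of m6A enrichment, read as the combined treatment over CoCl2. The table's name puts the combined treatment first, and the sign was read accordingly. In the authors' deposited table, 68 of 68 peaks with a log2 value of 4 to 10 overlapped a listed peak of the combined treatment, against 3 of 52 from -8 to -4. Peaks with an FDR under 0.05, a log10 FDR under -1.30, are called changed. For the members, 16 of 21 tested peaks in the authors' deposited table changed, against 68.9% of all 19983, which is near that background. There were 9 higher (42.9%, against 23.1% of all tested peaks) and 7 lower (33.3%, against 45.8%). Peaks of a gene share its transcripts and are not independent, so these shares are not tested. The members' log2 values ran from -0.80 to 0.80 in the authors' deposited table, so none reached 2-fold, with a median of 0.21 against -0.43 over all tested peaks. Strand in this list was read the same way, with the single drop in 45 of 48 chromosome stretches and a match for 98.7% of 15060 peaks. Of the 21 tested peaks of the members, 4 (19.0%) lay on the opposite strand, against 12.3% of all tested peaks. On the members' own strand, 13 of 17 changed, 8 higher and 5 lower, while the shares given over all tested peaks take in both strands. No source used here says whether the authors' FDR takes in replicate spread.

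Within CFIm every changed peak was higher after the combined treatment. CPSF7 had 3 changed peaks in the authors' deposited table, all labelled 3' UTR, with log2 values of 0.73 (log10 FDR -29.1), 0.40 (-14.4) and 0.53 (-6.48). The first and second lay over the same listed peak, of 5.47-fold, and the third over that of 2.07-fold. The 6.36-fold 3' UTR peak of CPSF7 was not among the tested peaks. The 5' UTR peak of CPSF7, the strongest by enrichment, had a log2 value of 0.44, by the authors' deposited table, without passing (log10 FDR -0.610). CPSF6 was at 0.49 in the authors' deposited table (log10 FDR -9.51), close to the values of CPSF7. NUDT21 had no tested peak.

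PCF11 changed in opposite directions along its length. Peaks in exon 5 and exon 6 and the mid-gene 5' UTR peak fell in the authors' deposited table, with log2 values of -0.78 (log10 FDR -39.4), -0.58 (-22.8) and -0.80 (-29.3). The peak on the single-exon transcript rose by 0.69 in the authors' deposited table (log10 FDR -7.25). Over the listed exon 13 peak of 2.36-fold, the tested PCF11 peak carried the label 3' UTR instead. It was at -0.13 and did not pass in the authors' deposited table (log10 FDR -0.927). The 5.37-fold peak at its start, which holds both consensus matches shown above, was not among the tested peaks. The difference between the peaks of PCF11 was not itself tested, since the table gives no error per value.

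CSTF1 also held both directions. Its 3' UTR peak fell to a log2 value of -0.75 in the authors' deposited table, with the lowest FDR of any member (log10 FDR -55.6), and its 5' UTR peak rose to 0.61, near the threshold (-1.37). For CSTF3, the changed peaks in the authors' deposited table, at -0.78 (log10 FDR -2.20) and -0.24 (-1.81), were those on the opposite strand, inside LINC00294. The own-strand 5' UTR peak of CSTF3 had 0.41 by the authors' deposited table without passing (log10 FDR -0.973), and its own 3' peak was not tested.

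Among the CPSF genes, CPSF2 rose at both tested peaks of the authors' deposited table, by 0.80 in the 5' UTR (log10 FDR -2.36) and by 0.54 in a peak labelled 3' UTR (-10.1). CPSF1 fell at its own-strand 3' peak to -0.58 in the authors' deposited table (log10 FDR -10.2). The opposite-strand peak of CPSF1 was at -0.68 there and did not pass, by the authors' deposited table (log10 FDR -0.569). The changed peak of CPSF4 in the authors' deposited table, at 0.21 (log10 FDR -2.11), was the 1 on the strand of ATP5MF and PTCD1. Its own-strand 5' UTR peak was at -0.35 in the authors' deposited table (log10 FDR -0.307), and the peak inside CPSF4 under the name PTCD1 was at 0.40 (-1.56). CPSF3 had no tested peak. In total 9 of the 29 listed peaks of the members had no tested peak over them.

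**Figure D4:**
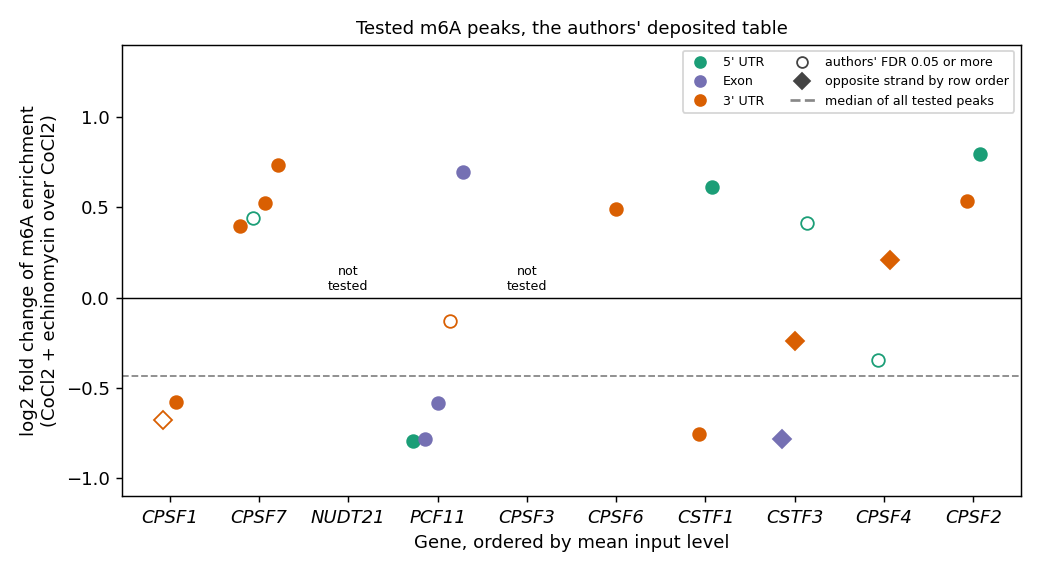
Log2 fold change of each tested peak in the authors' deposited table, combined treatment over CoCl2, coloured by region, open where the authors' FDR is 0.05 or more, with diamonds for the opposite strand and a dashed line at the median of all tested peaks, -0.43. CPSF7, CPSF6 and CPSF2 lie above 0, CPSF1 below it, and PCF11, CSTF1, CSTF3 and CPSF4 on both sides, all between -0.80 and 0.80.

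Counted as genes by their peak of lowest p, 4 of 8 tested members were higher and 4 lower, against 22.6% higher and 52.7% lower among all 11315 tested genes. Their median log2 value was -0.19 in the authors' deposited table, against -0.50 over all tested genes, and it depended on which peak stood for a gene. By the authors' deposited table it was -0.51 with the peak of highest absolute change, -0.07 with the mean over a gene's peaks and 0.03 with own-strand peaks alone. On the members' own strand, 3 genes were higher (CPSF2, CPSF6 and CPSF7), 3 lower (CPSF1, CSTF1 and PCF11) and 2 did not pass (CPSF4 and CSTF3). The values over all tested genes were taken by the peak of lowest p on either strand. They are no background for these other choices.

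Other genes of 3' end formation also moved both ways. Of 16 further cleavage and polyadenylation genes, all 16 were expressed and carried a listed peak, and 13 were tested, 5 higher and 8 lower, with a median of -0.36 in the authors' deposited table. A peak was listed for 79.7% of all genes at 1 FPKM or more, and 22.6% of all tested genes were higher and 52.7% lower. CLP1, the partner of PCF11 in CFII, fell to -1.21 (log10 FDR -73.7), RBBP6 to -0.71 (-159) and SCAF4, which binds RNA polymerase II, to -0.76 (-41.3) in the authors' deposited table. CSTF2, the RNA-binding subunit of CstF, rose to 1.46 (log10 FDR -26.3) and had 2 further peaks that rose, at 1.69 and 0.66, in the authors' deposited table. The lowest-p peak of the phosphatase gene PPP1CA, at -1.05 in the authors' deposited table, lay on the opposite strand. By that peak PPP1CA is counted as lower. Its own-strand peak of lowest p rose to 0.39 (log10 FDR -6.12) in the authors' deposited table, and another own-strand peak fell to -0.26 (-1.38). SYMPK, the scaffold that joins CPSF and CstF, had the highest enrichment of this list, 42.8-fold in its 3' UTR, and no tested peak.

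Integrator, which cleaves small nuclear RNA precursors with relatives of CPSF3 and CPSF2, served as the nearest comparison. A peak was listed for 13 of its 14 genes, and 12 were tested, 5 higher, 4 lower and 3 not passing, with a median of 0.24 in the authors' deposited table. Over all genes these shares were 79.7% with a listed peak, 22.6% higher and 52.7% lower. The lowest-p peaks of INTS6, at -1.55, and INTS8, at 0.99, in the authors' deposited table lay on the opposite strand. INTS11, the relative of CPSF3, had a 5' UTR peak of 16.3-fold that rose to 1.31 in the authors' deposited table (log10 FDR -67.9). Further INTS11 peaks rose there to 1.3 (log10 FDR -7.66) and 0.37 (-1.47), and another fell to -0.66 (-5.43). The remaining INTS11 peak, at 0.67 in the authors' deposited table, did not pass (log10 FDR -1.28). INTS5 fell to -1.06 (log10 FDR -61.8) in the authors' deposited table.

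The cell line label was set against marker genes. MPO, SPI1, KIT, CD34 and RUNX1T1, taken as markers of the labelled line, had means from 4.21 to 56.2 FPKM, with RUNX1T1 the lowest. Among markers of other cells, CD3E, ALB and COL1A1 were under 1 FPKM and EPCAM, an epithelial adhesion gene, had 8.79 ± 0.149 FPKM (SD, n = 3).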

How the data were processed

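Poly(A) RNA was fragmented, split between m6A pulldown and input, and made into strand-marked libraries, per the labels' protocols. The submitters' processing notes list ChIPseeker, HOMER, HISAT2 and fastp without versions or roles. The genome build, the peak caller and the way replicates were combined were not given in the sources used here. The authors deposited FPKM values for each gene in each input library, and 6 other FPKM columns were not used. Per the file headers the authors gave each listed peak a fold enrichment as a ratio, a p-value, and log10 values of p and FDR, read as a score because some are minus infinity. The authors' differential list gave a log2 fold change, a p-value and a log10 FDR score, per the file headers. Depth is unknown from FPKM, and intervals that need it are not given. The input columns all differed. Nothing beyond the replicate numbers says that cultures were separate, so SDs may be partly technical.

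Genes were expressed at a mean of 1 FPKM or more. A peak was called changed where the FDR of the authors was under 0.05. No test was fitted here. Overlap needed at least 1 base of exonic blocks on the same strand. Members were matched by symbol. Coordinates are as the tables give them. They overlapped the GRCh38.p14 positions for 10 of 10 members, with at least 1 end identical for 8. Repeated lines (16 in the peak list, 4 in the differential list) included no member. RefSeq sequences cover 250 bases before to 50 after a start site. The members and gene lists were chosen with earlier results of these data known. From each further list, the genes of lowest p or highest enrichment could be named, up to 6. The strand reading and its alternative settings were added after seeing the data. Functions were tested on simulated data. Computation used matplotlib 3.10.9, scipy 1.17.1, pandas 2.3.3 and numpy 2.4.6 under Python 3.11.15. Exact Clopper-Pearson intervals are at 95%.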

Additional observations from a re-analysis of the deposited data

How the results depend on the processing

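No paired analysis was possible because the peak lists hold no replicate values and FPKM was mapped to the input libraries alone. Leaving out 1 of 3 replicates cannot move a mean FPKM by as much as its SD, so it is no check of the levels. At 5-fold enrichment or more, 12 listed peaks of members were left in place of 29. With a 2-fold limit added to the authors' FDR of 0.05, 0 peaks of members were changed, 0 higher and 0 lower, because no member reached 2-fold. The median percentile of the members' levels was 82.7 among genes at 1 FPKM or more, 93.4 among all genes and 66.9 at 5 FPKM or more, as the genes compared differ. With own-strand peaks alone, the members' median log2 fold change turned to 0.0325 (-0.19 otherwise, -0.51 with each gene's peak of highest absolute change and -0.07 with the mean of its peaks), CSTF3 turned to 0.41 and CPSF4 to -0.35. With the mean of their peaks, CSTF1 was at -0.07 (-0.75 otherwise), CSTF3 at -0.21 (-0.78) and PCF11 at -0.32 (-0.78). CPSF4 also turned with the mean of its peaks (-0.069) and with its peak of highest absolute change (-0.35), and CPSF1 no longer passed with that choice (-0.68). Precision is limited by 1 value per peak, 3 input libraries and unknown depth.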

Other observations

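Many weakly supported peaks of the list shared exactly the same values. Not all did, since the 1.86-fold peak with the name CSTF3 (log10 p -2.53) shared its pair with no other. The 8 commonest pairs of fold enrichment and log10 p, such as 6.52 with -1.36 in 934 peaks and 7.45 with -1.60 in 775, lay a median of 0.93 apart in enrichment. The 8.38-fold peak of CPSF2 held such a pair (log10 p -1.85). Among all listed peaks, 12.6% missed an FDR of 0.05, against 1 of 29 for the members.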
